A study of Homo sapiens with 9 samples.

Results

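H3K4me3 regions lying far from any annotated gene were followed in HEL, a human erythroleukemia cell line, after knockout of 3 subunits of the m6A RNA methyltransferase. Peaks of all 9 peak lists that shared at least 1 bp were merged into 30402 regions. A region was taken as an intergenic H3K4me3 region where at least 2 of the 3 control libraries had a peak in it and where it lay more than 5 kb from every gene of any type in the GENCODE annotation of hg19 (GRCh37). There were 1498 such regions among the 20228 regions called in at least 2 control libraries, and the other 18730 are called gene-near regions here. The 4 groups were cells transduced with a non-targeting control guide (NTC, 3 libraries) and cells with a CRISPR knockout (KO) of METTL3, METTL14 or WTAP (2 libraries each). All groups were the same cell line grown in RPMI with serum, were assayed by CUT&RUN with an H3K4me3 antibody, and carried a guide delivered by lentivirus, so that the KO libraries came from transduced cell populations. The time from transduction to harvest is not given for these libraries, and nothing in the labels says that the libraries of a group came from separate cultures, so p-values measure only the spread between these libraries.

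H3K4me3 is the trimethylation of lysine 4 on histone H3. It is placed by the SET1 and MLL families of methyltransferases and is best known from the nucleosomes around active transcription start sites, where it accompanies CpG-rich promoters. Away from annotated genes it is found at starts of unannotated transcripts, at tRNA genes, which RNA polymerase III transcribes from promoters inside the gene, and at strong enhancers, where monomethylation is the more usual form. In CUT&RUN, a nuclease is brought to the mark by an antibody and the DNA it frees is sequenced, and the values used here were scaled by DNA of a yeast spike-in. METTL3 is the catalytic subunit of the methyltransferase that places N6-methyladenosine on messenger RNA, METTL14 is its partner in RNA binding, and WTAP is an adaptor that holds the complex at nuclear speckles.

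Several properties of the libraries bear on every value. The lists held 21724 to 21940 peaks in the NTC libraries, 9369 and 9205 with METTL3-KO, 5286 and 3169 with METTL14-KO, and 3159 and 3673 with WTAP-KO. METTL3-KO replicate 2 and both WTAP-KO libraries stood apart, in that 111 intergenic regions were called in these 3 libraries and in no other, 106 of them within 2 Mb of a run of at least 1 Mb of unknown bases in the assembly, as found at centromeres. Regions within that distance are called near-gap regions. Values were spaced by a library-specific step, of which at least 99.9% in every library were a whole multiple (to within 0.0001, plus as much again for each multiple of the lowest value). The step was 1.14 to 1.32 in the NTC libraries. It was 0.461 and 1.07 with METTL3-KO, 0.440 and 0.416 with METTL14-KO, and 0.407 and 0.320 with WTAP-KO. Every KO library thus lay below every NTC library, but METTL3-KO replicate 2 was close to NTC and far from replicate 1. Whether the step affected which peaks were called was not tested. Among erythroid and megakaryocytic marker genes, GATA1, KLF1, GFI1B, EPOR and GYPC had a peak within 1 kb of a start in all 3 NTC libraries, while TAL1, HBG1 and ALAS2 had one in none, against 1 of 6 lymphoid genes (PAX5) and 0 of 4 hepatocyte and neural genes.

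Among the intergenic regions, 6 kinds of DNA are shown because they behaved differently in the KO libraries or carry the motifs counted below. The first are tRNA-type internal promoters in 3 members near TRIM27 on chromosome 6. The capitals mark an A box (TGGNNNAG) and a B box (GGTTCGANNCC), the elements at which RNA polymerase III factors assemble on tRNA genes. They lie in GRCh37 at chr6:28770577-28770639 on the minus strand, chr6:28785012-28785075 on the minus strand and chr6:28849173-28849237 on the plus strand, with 26, 27 and 28 bases between the boxes.
box 1: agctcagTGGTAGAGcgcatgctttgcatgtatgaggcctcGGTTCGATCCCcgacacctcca
box 2: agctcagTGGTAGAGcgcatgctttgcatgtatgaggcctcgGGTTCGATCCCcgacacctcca
box 3: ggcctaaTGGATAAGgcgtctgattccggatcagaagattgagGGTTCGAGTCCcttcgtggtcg
The members around them had a mean NTC signal of 28043, 19326 and 17128, and peaks were present in 3, 6 and 6 of the KO libraries.

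The second kind is a satellite repeat from the near-gap member chr9:66970956-66972395, whose nearest protein-coding gene is FAM27E3. Its DNA runs in units of 171 bases, the length of alpha satellite, the repeat of human centromeres. Consecutive units on the minus strand are chr9:66971471-66971641, chr9:66971300-66971470 and chr9:66971129-66971299 in GRCh37, and the capitals mark the CENP-B box (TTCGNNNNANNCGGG), the binding motif of a centromere protein.
unit 1: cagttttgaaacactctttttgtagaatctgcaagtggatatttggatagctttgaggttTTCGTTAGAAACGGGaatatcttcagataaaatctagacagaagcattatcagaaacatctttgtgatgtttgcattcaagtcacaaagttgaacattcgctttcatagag
unit 2: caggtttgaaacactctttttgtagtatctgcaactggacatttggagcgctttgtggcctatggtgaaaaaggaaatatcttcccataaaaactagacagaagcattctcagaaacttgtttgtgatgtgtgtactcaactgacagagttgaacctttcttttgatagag
unit 3: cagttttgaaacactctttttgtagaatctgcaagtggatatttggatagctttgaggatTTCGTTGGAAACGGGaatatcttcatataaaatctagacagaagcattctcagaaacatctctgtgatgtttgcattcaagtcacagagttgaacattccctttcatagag
Units 1 and 3 were identical at 95.9% of positions, while unit 2, which has no CENP-B box, matched them at 80.7% and 82.5%. The third kind is a repeat of 5 bases (GGAAT, in capitals), as in human satellites II and III, from the member chr10:42379231-42381059. The stretch is chr10:42380070-42380219 on the minus strand of GRCh37 and holds 14 copies of GGAAT in 150 bases.
pentamer: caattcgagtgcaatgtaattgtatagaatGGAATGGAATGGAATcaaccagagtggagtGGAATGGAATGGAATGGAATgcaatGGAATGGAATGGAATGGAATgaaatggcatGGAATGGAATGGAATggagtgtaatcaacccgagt

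The fourth kind are windows of 300 bases with a GATA motif (AGATAA, in capitals on either strand) from members next to blood genes that lost every KO peak. They are chr11:33928855-33929154 beside LMO2, chr17:45317720-45318019 beside ITGB3 and chr16:89070599-89070898 beside CBFA2T3, all written from the plus strand of GRCh37.
GATA 1: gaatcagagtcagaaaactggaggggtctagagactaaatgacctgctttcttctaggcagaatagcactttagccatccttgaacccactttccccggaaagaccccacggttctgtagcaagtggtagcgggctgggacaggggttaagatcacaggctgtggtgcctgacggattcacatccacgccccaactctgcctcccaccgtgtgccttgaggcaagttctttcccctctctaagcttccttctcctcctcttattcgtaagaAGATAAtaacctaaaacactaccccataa
GATA 2: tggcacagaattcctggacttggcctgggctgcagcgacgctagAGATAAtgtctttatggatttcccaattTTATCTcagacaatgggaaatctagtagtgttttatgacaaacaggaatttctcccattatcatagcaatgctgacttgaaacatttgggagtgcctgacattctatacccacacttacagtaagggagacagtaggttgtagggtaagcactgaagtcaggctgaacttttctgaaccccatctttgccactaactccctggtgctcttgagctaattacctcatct
GATA 3: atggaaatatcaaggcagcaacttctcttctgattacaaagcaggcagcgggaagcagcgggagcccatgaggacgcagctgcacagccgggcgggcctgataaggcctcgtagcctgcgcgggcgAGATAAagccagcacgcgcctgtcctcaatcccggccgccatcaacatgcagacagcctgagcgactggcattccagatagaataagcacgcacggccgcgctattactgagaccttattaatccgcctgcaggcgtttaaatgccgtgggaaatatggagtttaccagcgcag
The next is a stretch of 200 bases with 20 CpG dinucleotides, in capitals, from a member nearest to LATS2 (chr13:21649632-21649831, plus strand). The last, from the member nearest to DIPK2A (chr3:144518121-144518220, plus strand, no capitals), is an alternating AT repeat, which is the only member with a GC content under 10%.
CpG: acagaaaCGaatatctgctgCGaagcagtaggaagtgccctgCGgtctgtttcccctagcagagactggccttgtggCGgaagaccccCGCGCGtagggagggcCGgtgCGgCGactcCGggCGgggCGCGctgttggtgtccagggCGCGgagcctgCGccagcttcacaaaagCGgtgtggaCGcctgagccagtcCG
AT: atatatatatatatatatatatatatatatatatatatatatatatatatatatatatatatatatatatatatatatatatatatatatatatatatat

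The intergenic regions were narrower and weaker than the gene-near regions in the NTC libraries and poorer in CpG. Their median width was 679 bp (range 156 to 3304 bp) against 915 bp. The median of their mean NTC signal, which is the summed signal of the peaks in a region, was 1399 against 2541. The median GC content was 45.6% against 53.4%, and the median ratio of observed to expected CpG was 0.343 against 0.559. A CpG-island-like composition (at least 200 bp, GC above 50% and a CpG ratio above 0.6) was found in 142 members (9.48%) and in 37.4% of the gene-near regions. The sets overlapped widely in width, signal and composition. The NTC libraries called these regions almost as repeatably as gene-near ones: of the intergenic regions called in any pair of NTC libraries, 89.0% to 91.8% were called in the remaining one, against 92.0% to 93.0% of gene-near regions. All 3 NTC libraries called 1136 of the members.

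The nearest gene of any type lay at a median of 15.1 kb and the nearest protein-coding gene at a median of 28.9 kb. That nearest gene was protein-coding for 570 members, a long non-coding RNA for 391, a pseudogene for 365 and a microRNA for 63. The members lay upstream of it in 742 cases and downstream in 756, so neither side was favored. Just inside the limit were members at 5.002 kb from THEMIS2, 5.006 kb from a pseudogene near RALA and 5.03 kb from AZIN2, with mean NTC signals of 431, 5014 and 111. Just outside were regions at 4.995 kb from NUGGC, 4.989 kb from BHLHE41 and 4.984 kb from PALM, with signals of 782, 1680 and 3542. None of these 6 regions had a KO peak.

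Many members came in groups, some near gaps and some not. With members at most 10 kb apart joined, 891 stood alone and 303 lay in 64 groups of 3 or more. The largest groups, with up to 14 members, were near gaps. Away from gaps, the largest was a group of 7 beside PDZD8, which encodes a lipid-transfer protein of the endoplasmic reticulum. Groups of 4 included those nearest to LMO2, ETS1, ZEB2 and CD47. A group of 3 lay beside TAL1, the basic helix-loop-helix factor that works with LMO2 in a GATA1 complex. None of the members in these 6 groups had a peak in any KO library. Other groups of 4 or more away from gaps differed. Of a group of 5 and a group of 4 nearest to SCAND3, 2 members each had a KO peak. In a group of 4 nearest to PLLP, 1 member had one. Groups of 5 nearest to LRRC7, SULT2A1, MAN2A1 and TGS1 had none. Nor had groups of 4 nearest to ENSG00000267561, TNFAIP8, MACROH2A1 and RHPN1. By nearest protein-coding gene, SCAND3 on chromosome 6 had 10 members (16.7 to 142.3 kb away), of which 4 kept a KO peak. ETS1, which encodes a transcription factor of the ETS family, had 8 members at 183 to 724 kb, and none of them kept one.

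**Figure D1:**
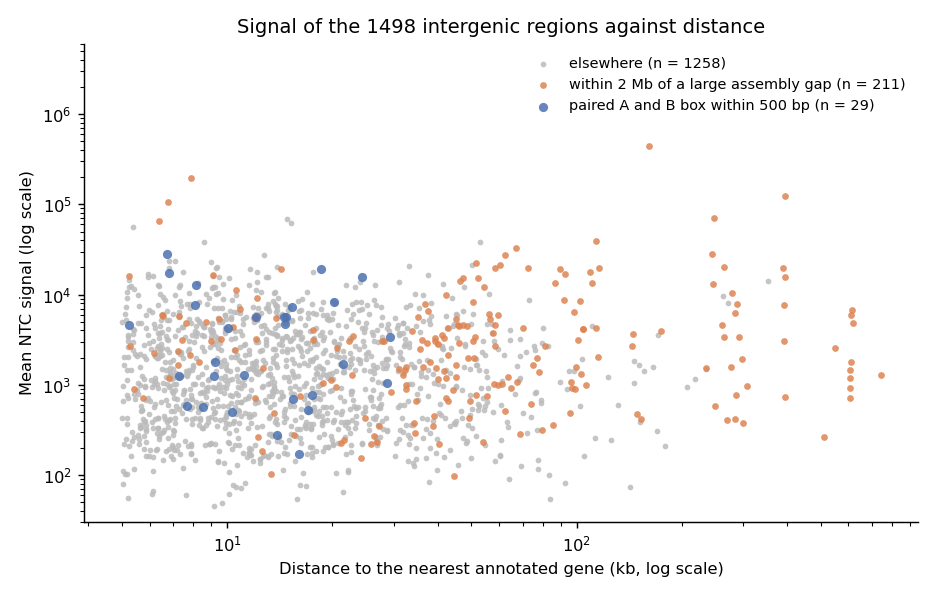
Mean NTC signal of each intergenic region (log scale) against its distance to the nearest annotated gene in kb (log scale), with 1 point per region and colors for its class. The strongest signals, up to 442769, belong to near-gap regions, and distances run from 5.002 to 741.2 kb.

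Intergenic peaks were far fewer in every KO library than in any NTC library. Every peak more than 5 kb from a gene was counted here, whether or not NTC libraries had called its region, so that the choice of members did not enter. The NTC libraries had 1625, 1649 and 1668 such peaks, the METTL3-KO libraries 315 and 575, the METTL14-KO libraries 292 and 145, and the WTAP-KO libraries 452 and 494. The mean fell from 1647 ± 21.5 (SD, n = 3) to 379 ± 157 (n = 6), or 23.0% of NTC (exact permutation test, two-sided; p = 0.0238, which no split of 3 against 6 libraries can go below). All peaks together fell as well. They stood at 42.9% and 42.2% of the NTC mean with METTL3-KO, 24.2% and 14.5% with METTL14-KO, and 14.5% and 16.8% with WTAP-KO. The fall was therefore not particular to intergenic peaks. Fewer cells with the mark and less of the mark per cell cannot be told apart in such populations.

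Near-gap regions held much of what was left in the KO libraries. Without them, 1339, 1413 and 1443 intergenic peaks stood in the NTC libraries against 198 and 172 with METTL3-KO, 106 and 65 with METTL14-KO, and 82 and 93 with WTAP-KO. The KO mean was then 8.53% of NTC, and 13.2%, 6.11% and 6.26% for METTL3-KO, METTL14-KO and WTAP-KO (exact permutation test of all KO against NTC libraries, p = 0.0238). Relative to each library's own peaks, intergenic peaks made up 7.44%, 7.52% and 7.68% in the NTC libraries. The shares were 3.36% and 6.25% with METTL3-KO, 5.52% and 4.58% with METTL14-KO, and 14.3% and 13.4% with WTAP-KO, so that the KO libraries lay on both sides and the mean difference was 0.365 percentage points (exact permutation test, p = 0.905). Away from gaps, the share was 6.62% ± 0.254 (SD, n = 3) in NTC and 2.42% ± 0.466 (n = 6) in the KO libraries, a difference of -4.20 percentage points (exact permutation test, p = 0.0238), with every KO library below every NTC library. The separation of near-gap regions was chosen after seeing the data, in which they held much of what was left in the KO libraries. Leaving them out therefore lowers the KO values, and the p-values away from gaps describe the chosen split and do not test the difference. With near-gap regions kept, but without METTL3-KO replicate 2 and both WTAP-KO libraries, the intergenic peaks stood at 15.2% of NTC and the share differed by -3.06 percentage points (exact permutation test, p = 0.1 for both, the smallest that 3 against 3 libraries allow).

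**Figure D2:**
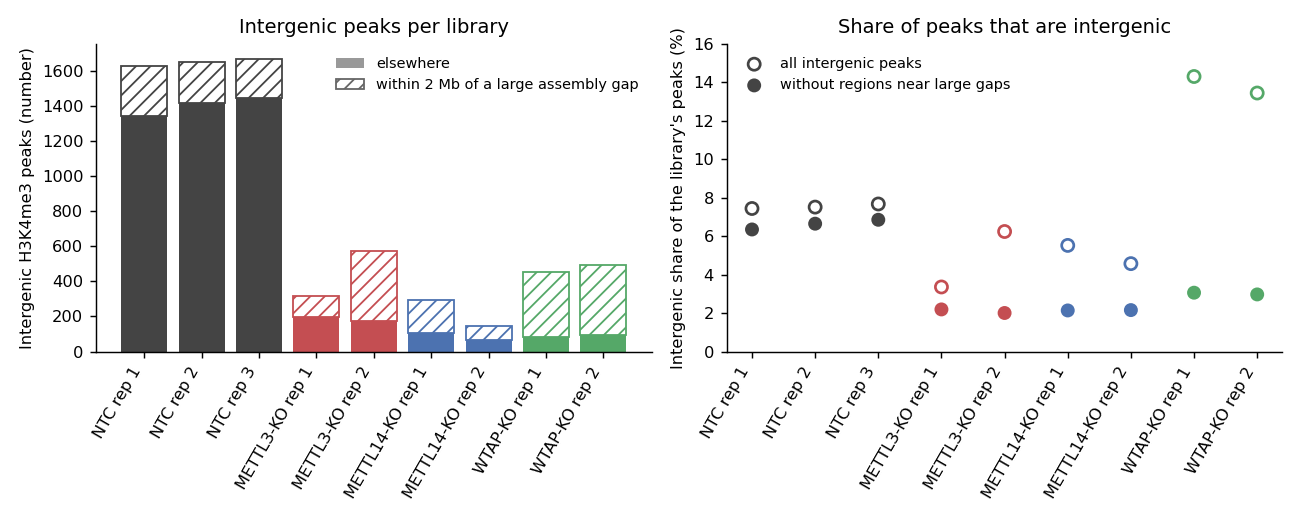
Left, number of intergenic peaks in each of the 9 libraries, with hatched bars for peaks within 2 Mb of a large assembly gap. Right, the same as a percentage of the library's peaks, with open points for all intergenic peaks and filled points for those away from gaps, where NTC averaged 6.62% and the KO libraries 2.42%.

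Most intergenic regions had no peak left after knockout. No KO library had a peak in 1199 of the 1498 members (80.04%), against 72.3% of gene-near regions. By group, 1223 members (81.6%) had no METTL3-KO peak, 1302 (86.9%) no METTL14-KO peak and 1347 (89.9%) no WTAP-KO peak. Of gene-near regions, 72.6%, 88.1% and 93.3% had no peak in these groups. The share was thus higher in members only with METTL3-KO, and lower with METTL14-KO and WTAP-KO. Away from gaps, 90.1% had none in any KO library. All 6 KO libraries had a peak in 35 members (2.34%) and in 3.09% of gene-near regions.

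Signal over the regions was compared in a limma fit over the 24547 regions called in at least 2 of the 9 libraries, on log2(signal + 30.1), and a region was called at a Benjamini-Hochberg adjusted p below 0.05. Since NTC calls chose the members, these counts describe them and carry no test of loss. For the mean of the KO groups, 1285 members (85.8%) were called lower and 0 higher, where 76.7% of all regions tested and 93.6% of the gene-near regions were called lower. With METTL3-KO, 1009 members were lower (67.4%), where 62.4% of all regions were. With METTL14-KO, 1024 were lower (68.4%), where 65.3% of all regions were. With WTAP-KO, 1041 were lower (69.5%) and 8 higher, where 65.5% of all regions were lower. Of the gene-near regions, 76.4%, 80.1% and 80.3% were called lower with METTL3-KO, METTL14-KO and WTAP-KO. In each group the members' share was thus below that of the gene-near regions. The members' median log2 difference of all KO groups from NTC was -4.85, that of all regions tested -4.95 and that of the gene-near regions -5.56; these medians depend on the pseudocount, because most KO values were 0. Centring each library on the 511 regions called in all 9 libraries raised the median difference of all regions by 3.02 for the KO mean, and 834 members were then called lower and 25 higher. With WTAP-KO, that centring gave 666 lower and 86 higher.

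Whether intergenic regions kept their peaks as often as gene-near regions was compared within each KO library, both sets having passed the same NTC rule. METTL3-KO replicates 1 and 2 had a peak in 11.4% and 14.2% of the intergenic regions and in 23.8% and 22.2% of the gene-near regions. METTL14-KO had one in 12.9% and 4.61% against 11.4% and 5.80%, and WTAP-KO in 9.48% and 9.08% against 5.00% and 5.68%. The sign of the difference was mixed, and its mean of -2.05 percentage points did not pass an exact sign-flip test over the 6 libraries (two-sided p = 0.531).

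Away from gaps, the intergenic regions kept fewer peaks than gene-near regions in all 6 KO libraries. They kept 7.93% and 7.46% with METTL3-KO, 4.35% and 2.33% with METTL14-KO, and 3.03% and 3.34% with WTAP-KO. The differences from gene-near regions were -15.9 and -14.7, -7.01 and -3.47, and -1.89 and -2.27 percentage points. Their mean was -7.55 (exact sign-flip test, two-sided p = 0.031, the smallest that 6 libraries allow). Near-gap regions were set apart after the data were seen, and 81.5% of near-gap members had a KO peak. They made up 14.1% of members and 2.23% of gene-near regions, so leaving them out lowers the intergenic share. This p-value therefore describes the chosen split and does not test the difference. METTL3-KO differed from the other KO libraries by -11.7 percentage points in the difference from gene-near regions. The 2 METTL3-KO libraries lay below all 4 others (exact permutation test, p = 0.133, the smallest that 2 against 4 allow).

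**Figure D3:**
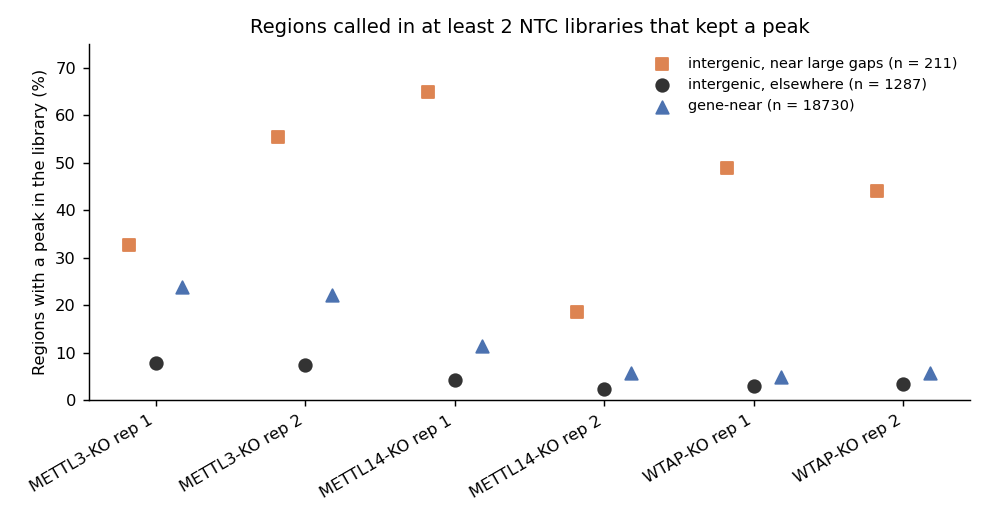
Percentage of regions called in at least 2 NTC libraries that had a peak in each KO library, for near-gap intergenic regions, other intergenic regions and gene-near regions. Near-gap regions lie between 18.5% and 64.9%, and other intergenic regions between 2.33% and 7.93%, below the gene-near regions in every library.

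At like NTC signal the difference was smaller. All NTC regions were split into quintiles of mean NTC signal. In the lower 2 quintiles, none of the 427 and 305 intergenic regions away from gaps had a KO peak, against 0.114% and 1.73% of gene-near regions. In the middle quintile, 4.20% had one against 12.8%, in the next 19.3% against 41.4%, and in the highest 62.3% against 78.8%. In percentage points the deficit was largest with METTL3-KO, where 19.3% of intergenic and 40.9% of gene-near regions had a peak in the second highest quintile, and 61.5% and 78.4% in the highest. With METTL14-KO the shares were 3.74% against 10.9% in the second highest quintile and 36.9% against 44.3% in the highest. With WTAP-KO they were 1.07% against 2.33% in the second highest quintile, while the highest went the other way, at 34.6% against 29.1%. The differences within quintiles, away from gaps, were then combined with each quintile weighted by its share of these members. They were -6.05 and -5.62 percentage points with METTL3-KO, -1.87 and -0.636 with METTL14-KO, and 0.518 and 0.485 with WTAP-KO. Their mean of -2.20 did not pass (exact sign-flip test, p = 0.156). The lower quintiles, where almost no region kept a peak, weigh on these values.

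**Figure D4:**
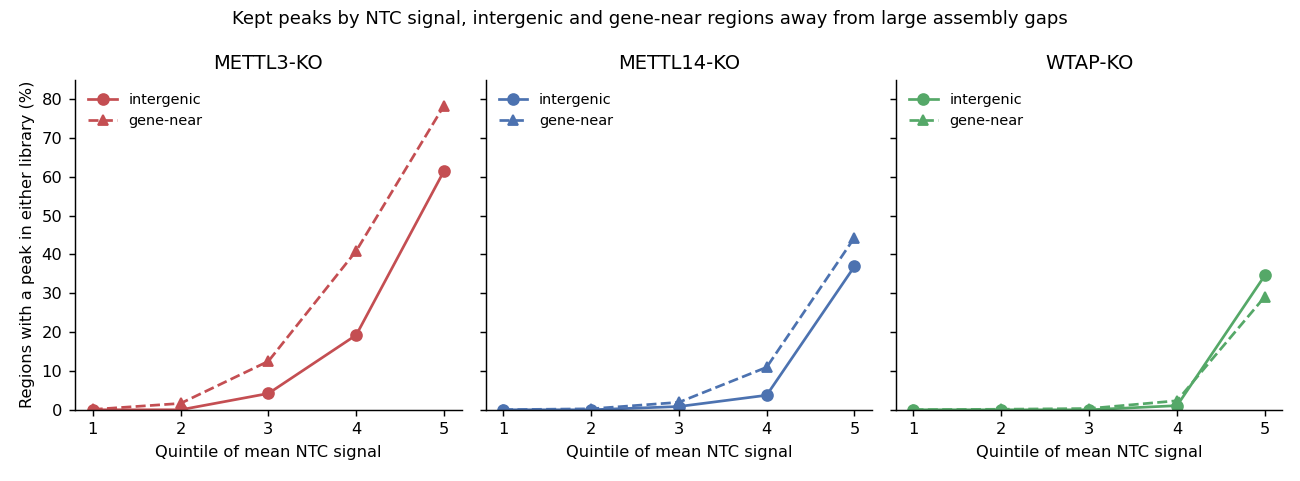
Percentage of regions with a peak in either library of each KO group, by quintile of mean NTC signal (1 lowest), for intergenic (solid) and gene-near (dashed) regions away from large gaps. Shares rise with NTC signal in all 3 groups. The intergenic line runs below the gene-near line in the upper quintiles with METTL3-KO (61.5% against 78.4% in the highest) and METTL14-KO (36.9% against 44.3%).

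Near-gap members had a called peak more often than the other members in every KO library. They numbered 211 (14.1% of members, against 2.23% of gene-near regions), and 172 of them had a KO peak. No repeat, mappability or blacklist annotation of hg19 was used. Whether the values of these regions reflect the mark or the placing of reads from repeats was not tested. A peak was present in 32.7% and 55.5% of them with METTL3-KO, 64.9% and 18.5% with METTL14-KO, and 48.8% and 44.1% with WTAP-KO. Where the peak was present and all NTC libraries had called the region, its median ratio to the NTC mean was 0.311 and 3.59 with METTL3-KO, 1.23 and 0.225 with METTL14-KO, and 5.91 and 7.31 with WTAP-KO. The replicates of METTL3-KO and of METTL14-KO thus lay on opposite sides of the NTC level. In METTL3-KO replicate 2, 82 of 90 such regions were above every NTC library, in WTAP-KO replicate 1 74 of 75 and in replicate 2 69 of 70. Away from gaps, the median ratio was 0.0441 to 0.145.

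Repeats made up more than 1 kind of near-gap region, and the kinds differed in which libraries kept them. Members with at least 50% of bases equal at a distance of 171 bp numbered 43, of which 42 were near gaps, and 97.7% of them had a KO peak. The CENP-B box was in 63 members (4.21%), against 0.256% of gene-near regions, and 92.1% of these members had a KO peak. Members with at least 50% of bases equal at a distance of 5 bp numbered 75 (5.01%, against 0.0374% of gene-near regions), all of them near gaps, and every one had a peak in at least 1 KO library. A peak was present in 14.7% and 93.3% of these 75 with METTL3-KO, 74.7% and 5.33% with METTL14-KO, and 72% and 62.7% with WTAP-KO, so that replicates of METTL3-KO and of METTL14-KO were far apart. For the 43 members of the 171-bp kind the shares were 60.5% and 53.5%, 86.0% and 39.5%, and 58.1% and 51.2%. Near-gap members of neither kind numbered 95, and 38 of them had no KO peak.

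Single members show the same. The GGAAT member printed above, nearest to ZNF33B, had 22478, 19008 and 19490 in NTC, 0 and 45246 with METTL3-KO, 26664 and 0 with METTL14-KO, and 71648 and 86994 with WTAP-KO. It was absent from 1 replicate each of METTL3-KO and METTL14-KO and above every NTC value in the other 4 KO libraries. The satellite member nearest to FAM27E3, which is 812.5 kb away, had signals of 117578, 106459 and 96316 in NTC, 63082 and 279631 with METTL3-KO, 100067 and 46657 with METTL14-KO, and 263823 and 309540 with WTAP-KO. Its WTAP-KO values and 1 METTL3-KO value were above every NTC value, and its other KO values within or below the NTC range. Another near-gap member, chr2:92289936-92291741, had 34464, 32282 and 30571 in NTC, 18353 and 116687 with METTL3-KO, 33085 and 16442 with METTL14-KO, and 117087 and 143442 with WTAP-KO. It too was above NTC in METTL3-KO replicate 2 and WTAP-KO and below it in METTL3-KO replicate 1 and METTL14-KO replicate 2. Others were lost from whole libraries: chr1:121483800-121485434, the strongest member of all with a mean NTC signal of 442769, had no peak in METTL3-KO replicate 2 and in both WTAP-KO libraries, and 222943, 452672 and 182107 in METTL3-KO replicate 1 and METTL14-KO replicates 1 and 2. The strongest 5 members were all near-gap regions, and 7 of the 8 members called higher with WTAP-KO were near gaps (log2 difference 1.21 to 5.88).

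The summed signal of members shows the same split. Near-gap members together held 69.0% ± 31.5 (SD, n = 2), 70.0% ± 47.4 and 145% ± 12.4 of the NTC signal with METTL3-KO, METTL14-KO and WTAP-KO. The 1287 members away from gaps held 8.87% ± 4.13, 6.56% ± 1.39 and 5.23% ± 1.08. A single region weighed on these sums: the AT repeat near DIPK2A (chr3:144517869-144518472) had 13282, 21227 and 7668 in NTC, 135410 and 0 with METTL3-KO, 75766 and 204092 with METTL14-KO, and 13776 and 22286 with WTAP-KO. Without it and the satellite members, the remaining 1285 held 6.21% ± 2.31, 2.38% ± 0.878 and 2.85% ± 0.698, beside 9.005%, 2.92% and 1.63% for gene-near regions away from gaps.

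tRNA-type promoters marked a second class that kept peaks more often than most. Boxes were sought on both strands in each region and 500 bp on either side, with 20 to 80 bases between them. An A box followed by a B box was found in 29 members (1.94%) and in 0.358% of gene-near regions. For 27 of the 29, the RefSeq table of GRCh38.p14 lists a tRNA gene between the same neighbouring protein-coding genes. Such a gene was listed for 76 of the 1341 members with RefSeq neighbours, and sharing an interval between genes does not place the tRNA gene at the member. The GENCODE annotation on hg19 gives no nuclear gene the type tRNA, so that a region at a tRNA gene could count as intergenic here. A KO peak was present in 31.0% of the 29 members, and 3 were called in all 6 KO libraries, compared with 9.87% of all members away from gaps. Their median NTC signal was 3411, compared with 1262.

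An interval of chromosome 6 from 25 to 30 Mb, which holds the major histone gene cluster and the largest group of human tRNA genes, held 32 members with a median NTC signal of 11318. Of these, 62.5% had a KO peak and 10 were called in all 6 KO libraries, out of 35 in the genome. In the quintile of highest NTC signal, which holds that median, 62.3% of the intergenic regions away from gaps had a KO peak. That quintile includes members of this interval, and the signal of the 32 was not matched to it. Whether the interval differs from members with like signal was therefore not tested. Away from gaps, 23 members in the genome were called in all 6 KO libraries. At 39.9 kb from H2AC12, which encodes histone H2A, the member chr6:27155200-27156881 had 36926, 34586 and 42804 in NTC, 19280 and 16583 with METTL3-KO, 9714 and 10274 with METTL14-KO, and 9291 and 10722 with WTAP-KO. Its groups did not overlap between NTC and KO, and METTL3-KO lay above the other KO libraries by 0.84 on the log2 scale (SE 0.17; limma, adjusted p = 0.0205).

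Other strong members away from satellites fell without being lost. The member chr17:41399907-41401321, 14.8 kb from the non-coding RNA LINC00910 and nearest to TMEM106A, had 63301, 68965 and 73318 in NTC, 8948 and 7568 with METTL3-KO, 2938 and 1180 with METTL14-KO, and 6936 and 10637 with WTAP-KO, a log2 difference of -3.74 (SE 0.32). METTL14-KO was lowest there. The member chr9:4901185-4902934, 15.3 kb from RCL1, which encodes a ribosomal RNA processing protein, had 62102, 60594 and 65724 in NTC and 7604 to 16959 in the KO libraries (log2 difference -2.32, SE 0.20). The member chr4:190969937-190971522, 21.5 kb from FRG2 in the subtelomere of chromosome 4, had 51727, 52752 and 63794 in NTC and 10112 to 23960 in the KO libraries (log2 difference -1.89, SE 0.17). Members beside VPS26C and GPATCH8, also called in all 6 KO libraries and away from gaps, had log2 differences of -2.77 (SE 0.29) and -4.45 (SE 0.79).

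The share with a KO peak varied less with composition and neighbours than with signal and width. CpG-island-like members away from gaps had a KO peak in 16.8% of 137 cases, against 9.04% of those neither CpG-island-like nor near gaps. A RefSeq start sequence was found in 49 members (3.27%), against 45.4% of gene-near regions; 24.5% of these members had a KO peak, and the genes of 47 are not in GENCODE under that symbol. Width showed a wider range: away from gaps, 0.891% of members up to 500 bp had a KO peak, 5.48% of those of 500 to 1000 bp, 21.6% of those of 1000 to 1500 bp and 42.3% of wider ones. Since no peak in the lists is over 2000 bp wide and wide regions had more signal, width and signal cannot be told apart here. By nearest gene, 6.58% of members next to a long non-coding RNA had a KO peak, 9.11% next to a protein-coding gene and 14.9% next to a pseudogene.

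Motifs were counted in the 300 bases about the middle of each region. AGATAA, the GATA factor motif, was in 20.4% of members and 14.4% of gene-near regions. The E-box CANNTG was in 73.6% and 68.8%, and its form CACGTG, which the first motif includes, in 3.87% and 5.06%. CCACACCC, the motif of KLF factors, was in 2.40% and 3.21%, the AP-1 motif TGACTCA in 5.07% and 3.98%, and the ETS motif ACCGGAAGT in 0.134% and 0.427%. Both strands were searched. Of members away from gaps, 5.44% of the 294 with AGATAA and 11.2% of those without it had a KO peak, and the median NTC signal of those with it was lower, at 939 against 1388.

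Members next to blood genes were lost about as often as other members away from gaps. Of 103 listed genes, 22 were the nearest protein-coding gene of 45 members, none of them near a gap, and 43 of the 45 had no peak in any KO library (95.6%, compared with 90.1% of all members away from gaps). In the limma fit, 42 of the 45 were called lower for the KO mean, beside 76.7% of all regions tested and 1212 of the 1287 members away from gaps, so that these members stood near the share of the others. They were called lower in 31 cases with METTL3-KO, 32 with METTL14-KO and 32 with WTAP-KO, beside 962, 979 and 975 of the 1287, and 0 were higher. With the libraries centred, 26 of 45 were lower for the KO mean. Transcription factor genes had 28 of the 45, red cell genes 7, and signalling and megakaryocyte genes 10. AGATAA was in the middle 300 bases of 14.

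The strongest lay 34.5 kb from MYB, the factor that keeps progenitors dividing, at chr6:135466056-135467974, with a signal of 11808, 9067 and 9880 in the NTC libraries. Another lay 46.7 kb from ETV6, an ETS repressor of blood stem cells, at chr12:11754122-11755858, with 7980, 7428 and 6976. The member 14.9 kb from LMO2, the bridging subunit of the GATA1 and TAL1 complex, at chr11:33928528-33929481, had 4660, 5817 and 5209. All 6 KO libraries were listed at 0 for these 3 members, as they were for the other 4 members of LMO2 and the other 2 each of MYB and ETV6.

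The same held beside genes of other roles. The member 10.8 kb from GFI1B, an erythroid and megakaryocytic repressor, at chr9:135877922-135879801 had 3683, 3378 and 4678 in NTC. The member 12.9 kb from ITGB3, the platelet integrin beta 3, at chr17:45317429-45318311 had 3523, 2980 and 3156. The member 26.8 kb from CBFA2T3, a corepressor in the TAL1 complex, at chr16:89070374-89071124 had 1449, 2851 and 2872. No KO library had a peak in these 3 either.

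TFRC and SLC25A37 supply iron to heme synthesis, as the transferrin receptor and a mitochondrial iron importer. Near TFRC, 3 members lay 38.0 to 45.2 kb away, with signals at the strongest of 3534, 5021 and 0 in NTC, so that NTC replicate 3 had no peak there. The strongest of the 2 near SLC25A37 had 1698, 1987 and 3307. None of these 5 members had a KO peak.

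Only the members of PIM1 and SOCS2 had a KO peak among the 45. PIM1 is a kinase and SOCS2 a feedback inhibitor, and both are targets of JAK-STAT signalling. The PIM1 member (chr6:37070185-37071596, 66.3 kb away) had 8180, 9816 and 11859 in NTC and 933 in METTL3-KO replicate 1. The SOCS2 member (chr12:93984631-93985796, 7.37 kb away) had 7327, 6572 and 8680 in NTC, 2227 in METTL3-KO replicate 1 and 447 in METTL14-KO replicate 2. The other KO libraries were at 0 for both, so replicates of a group disagreed. LYN, a kinase of the SRC family, had 4 members at 14.9 to 26.2 kb, and the strongest had 5150, 7069 and 8073 in NTC with no KO peak.

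**Figure D5:**
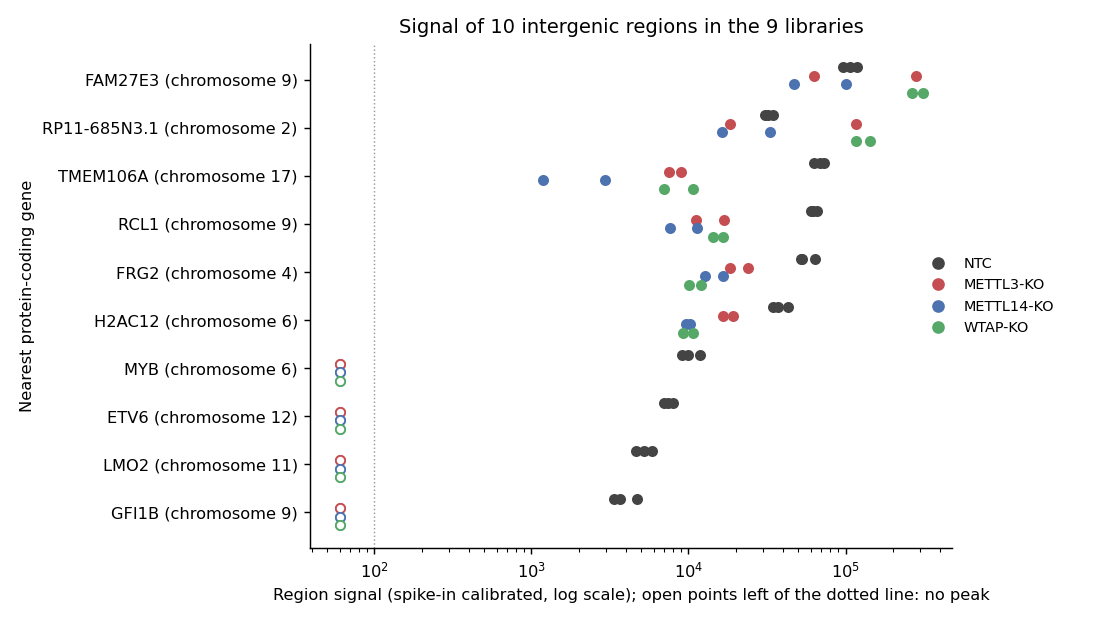
Region signal (spike-in calibrated, log scale) of 10 intergenic regions in the 9 libraries, named by nearest protein-coding gene, with 1 point per library and open points left of the dotted line for libraries without a peak. The members of MYB, ETV6, LMO2 and GFI1B have no KO peak, those of TMEM106A, RCL1, FRG2 and H2AC12 are lower in all 6 KO libraries, and the near-gap members of FAM27E3 and RP11-685N3.1 have WTAP-KO values above NTC.

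METTL3-KO retained more signal than METTL14-KO and WTAP-KO at some members. The NTC libraries chose the members and entered the estimate of the spread, but not this difference. In the limma fit, 34 members (2.27%) were higher with METTL3-KO than with the mean of the other KO groups and 1 was lower, where 14.7% of all regions tested and 9.93% of gene-near regions were higher. Both METTL3-KO libraries had a peak in all 34, and 19 of them had no METTL14-KO or WTAP-KO peak. In both METTL3-KO libraries, all 34 were below the NTC mean, and their median log2 excess was 3.71. They were strong regions, with a median NTC signal of 8981. Of the 34, 11 lay on chromosome 6 and 3 were near gaps. The count was 59 to 61 without METTL3-KO replicate 1, METTL3-KO replicate 2 or METTL14-KO replicate 1, and 20 with values divided by the step of each library. Centring each library on the shared regions moved the median difference of all regions by -1.47 and gave 27 higher and 770 lower members.

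The 3 largest excesses were at members far from coding genes. At chr13:90797187-90798697, 9.09 kb from a pseudogene of 5S ribosomal RNA and nearest to GPC5, the signal was 9079, 12646 and 14274 in NTC, 3450 and 1842 with METTL3-KO, 0 and 0 with METTL14-KO, and 138 and 0 with WTAP-KO (log2 excess 5.79, SE 0.70, adjusted p = 0.00182). At chr12:38493185-38493985, a near-gap member nearest to ALG10B, it was 5025, 4145 and 7310 in NTC, 2131 and 964 with METTL3-KO and 0 in the other 4 KO libraries (adjusted p = 0.000121). At chr6:27584593-27586102, nearest to ZNF184, it was 13297, 14864 and 18443 in NTC, 3896 and 1671 with METTL3-KO, and 0 except for 326 in WTAP-KO replicate 2 (log2 excess 5.53, SE 0.96, adjusted p = 0.0101). In each, both METTL3-KO libraries were below every NTC library and above every other KO library. Adjusted p values are from limma with Benjamini-Hochberg adjustment over all regions tested.

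Among the widest and the most distant members, some were lost and some were not. The widest member, 3304 bp at chr13:104116552-104119855 and 398 kb from SLC10A2, which encodes an intestinal bile acid transporter, had 4085, 5646 and 6215 in NTC and no KO peak. The next widest, a near-gap member of 2920 bp nearest to SPIDR, had 7343, 5629 and 7297 in NTC. It had 2912 and 0 with METTL3-KO, 7780 and 0 with METTL14-KO, and 47902 and 61239 with WTAP-KO. A member of 2362 bp, 10.6 kb from CD47, which encodes the signal that keeps macrophages from engulfing red cells, had 5411, 6442 and 7168 in NTC and no KO peak. The member farthest from any gene, chr7:61079057-61080662 at 741.2 kb and in a near-gap region, had 1199, 1159 and 1448 in NTC, 1249 and 13366 with METTL3-KO, 3443 and 884 with METTL14-KO, and 17429 and 21572 with WTAP-KO. Of members away from gaps, 12.8% at 5 to 10 kb from a gene had a KO peak, 8.61% at 10 to 50 kb, 3.95% at 50 to 100 kb and 12.5% of the 24 beyond 100 kb.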

How the data were processed

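H3K4me3 CUT&RUN libraries of HEL cells were grouped by the sample labels. The authors aligned reads with Bowtie to hg19 and, for the spike-in, to sacCer3, removed duplicates with Picard (versions not given in the sources used here), scaled each library by the spike-in and called peaks per library. The authors deposited, for each library, a peak list with a signal, the calibrated coverage of each peak. Depth is unknown, so no interval that needs it is given, and precision is set by how many libraries each group has. Starts were read as counted from 0, which is an assumption, and coordinates are printed from 1. The 2 mitochondrial peaks were left out. Peaks of different libraries had no identical position and value within a group.

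Peaks sharing at least 1 bp were merged, and a region's value was the sum of its peaks. Genes were those of GENCODE 44 lifted to GRCh37 (64486 genes, 20176 of them protein-coding). limma 3.58.1 (R 4.3.3) was run with the trend option on log2(signal + 30.1), the smallest region signal being the pseudocount, in a single model of the 9 libraries in their 4 groups, for regions that 2 or more libraries had called, and was tested on simulated data. On that scale the change of a weak region is understated. Exact permutation and sign-flip tests used scipy 1.17.1. Gene types, distances and motifs came from Python 3.11.15 with pysam 0.24.0, and RefSeq tables of GRCh38.p14 gave only names, neighbours and start sequences.

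The members, gene lists and tests were chosen with earlier results of these data known. Regions to name were listed by a rule: the 10 with the highest NTC signal, 10 called in all 6 KO libraries, 15 next to listed blood genes, the 3 widest, the 3 farthest from a gene, the 3 on either side of the 5 kb limit and the 3 with the largest METTL3-KO excess. Not every region on that list is described above. Clusters, repeats, the boxes and the LATS2 stretch were chosen after values were seen. The satellite unit length was the lag, from 50 to 300 bp, with the highest mean self-identity of near-gap regions with a CENP-B box. Alternatives were other distance limits, peak thresholds, pseudocounts, filters and scalings, the replicate block and leaving out each library. The result of 1 erythroid marker gene is not reported here.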

Additional observations from a re-analysis of the deposited data

Results flagged for a closer look

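Knockout effects differed between the KO groups at some intergenic regions. In the limma test of METTL3-KO against the other KO groups, 34 of 1498 members were higher with METTL3-KO and 1 was lower, while 14.7% of all regions tested were higher. METTL3-KO replicates 1 and 2 had 9369 and 9205 peaks in all, against 3159 to 5286 in the other KO libraries, and the part of this difference in the result was not tested.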

How the results depend on the processing

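Over 9 results and 161 alternatives, 138 values kept their direction and their side of the threshold, or stayed within the spread between libraries or within 1.5 times the count. The share of peaks and the difference in kept share, neither of which passed its test, changed sign in some. The intergenic peaks of the KO libraries, 23.0% of NTC, were at 20.6% to 25.8% without each library in turn (exact permutation test, p = 0.0714 without an NTC library, the smallest possible there), 23.1% with the replicate block (p = 0.125, exact, again the smallest possible) and 15.2% without METTL3-KO replicate 2 and both WTAP-KO libraries. The share of peaks differed by -0.914 to 1.27 percentage points without each library, by -1.82 with a limit of 1 kb, by -2.33 with distance to protein-coding genes only, by -3.06 without those 3 libraries and by -4.20 without near-gap regions. Members lower for the KO mean numbered 834 after centring and 2053 of 2316 with the limit at 1 kb, and those lower with WTAP-KO 666 after centring. Members higher with METTL3-KO than the other KO groups numbered 30 to 61 without each library (a lone library was assumed to vary like the other groups) 20 after division by the step, and 27 after centring, where 770 were lower against 1 before. The difference in kept share was -3.36 to 0.0267 percentage points without each library, 2.66 within quintiles of NTC signal and -7.55 without near-gap regions. Members without a KO peak were 76.3% when peaks under the median NTC signal were left out and 90.1% without near-gap regions. Same-numbered libraries did not deviate together on average (12 pairs, mean r = -0.0312, range -0.386 to 0.217). The labels do not say whether they share a batch, and this mean does not settle it. With the replicate block, members lower were 1097 for the KO mean and 1062, 1079 and 1100 for METTL3-KO, METTL14-KO and WTAP-KO, and 25 were higher with METTL3-KO. The cause of these changes was not tested, apart from the fewer libraries where some were left out. Depth is unknown, so a region without a peak has no upper limit here.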

Other observations

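Intergenic regions that no NTC library called numbered 437, of which 353 were near large assembly gaps. Regions called in 1 NTC library numbered 564, of which 82 had a KO peak.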
